A study of Mus musculus with 18 samples.

Results

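The 10 genes described here encode the neurofilament subunits (Nefl, Nefm and Nefh), the related filament protein alpha-internexin (Ina), the microtubule-associated proteins tau (Mapt), Map2, Map1a and Map1b, and Stmn2 and Gap43, which are found in growing axons. They were chosen by name as a functional group, with earlier results of these data known. All 10 were among the 23420 gene symbols of the count table. Each passed the filter on low counts in all 11 comparisons, so none was left out. RNA came from the cortex of Camk2a-Cre-Rpl22HA mice, in which a Cre recombinase driven by Camk2a, active mainly in excitatory neurons of the forebrain, turns on an HA-tagged copy of the ribosomal protein Rpl22. Input was total RNA, and IP was RNA recovered with the tagged polysomes, so it should be enriched for messages bound to ribosomes in those neurons. Control mice had no tumor, tumor mice had glioma cells implanted in the cortex, and AZD mice had the same tumor and received AZD8055, an inhibitor of the kinase mTOR. All 6 groups carry Camk2a-Cre and Rpl22HA, and each held 3 libraries, 18 in all. The glioma cells are not described further in the labels, and age, sex, AZD8055 dose, treatment time and any vehicle for the other mice are missing from the sources used here. The labels speak of groups of mice without tying each library to a separate mouse, so each p-value reflects only how far these libraries vary, which may be partly technical.

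Neurofilaments are the intermediate filaments of mature neurons. They assemble from the light, medium and heavy subunits together with alpha-internexin, fill large myelinated axons and set their calibre. Tau lies mainly on axonal microtubules and Map2 on those of dendrites and cell bodies, while Map1b is prominent during axon growth and Map1a in mature neurons. Stmn2 binds tubulin and promotes microtubule disassembly in growth cones. Gap43 is a membrane-bound phosphoprotein of growth cones and presynaptic terminals, and both are used as markers of axon growth and regrowth. 

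RefSeq places all 10 genes on GRCm38 (mm10), the build that the submitters' processing notes name. Nefl (chr14:68083863-68089095) and Nefm (chr14:68119545-68125004) are neighbours on chromosome 14, 30449 bases apart, with 1 RefSeq gene lying wholly between them. Nefh (chr11:4938754-4948064) and Mapt (chr11:104229409-104332090) lie far apart on chromosome 11. Ina is at chr19:47014681-47025327, Map2 at chr1:66175202-66442583, Map1a at chr2:121289590-121310832 and Map1b at chr13:99421464-99516602. Stmn2 is at chr3:8509527-8561604 and Gap43 at chr16:42248552-42340651. RefSeq start-site sequences (GRCm38.p6) were matched for Ina, Map2, Map1a and Map1b. The start site in that table lies 127 bases inside the outer bound of Map2 and 12 inside that of Map1a, and equals the bound in the other 2 genes. Of the 250 bases before each start site, those outside the gene's bounds are shown for these 4 genes, the only ones matched. A link between these bases and the levels of the genes was not tested. Each reads 5′ to 3′ on the gene's strand, and capitals mark the GC box GGGCGG on either strand, the core of the binding motif of Sp1-family factors, with overlapping matches counted separately.
Ina, chr19:47014431-47014680 (+ strand): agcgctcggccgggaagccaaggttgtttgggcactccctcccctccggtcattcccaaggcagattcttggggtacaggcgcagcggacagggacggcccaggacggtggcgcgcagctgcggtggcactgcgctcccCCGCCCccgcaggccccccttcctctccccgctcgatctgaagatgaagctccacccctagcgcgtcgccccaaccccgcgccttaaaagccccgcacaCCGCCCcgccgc
Map2, chr1:66175079-66175201 (+ strand): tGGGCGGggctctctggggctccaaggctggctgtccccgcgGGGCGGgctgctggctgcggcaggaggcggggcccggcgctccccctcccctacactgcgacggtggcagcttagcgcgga
Map1a, chr2:121289352-121289589 (+ strand): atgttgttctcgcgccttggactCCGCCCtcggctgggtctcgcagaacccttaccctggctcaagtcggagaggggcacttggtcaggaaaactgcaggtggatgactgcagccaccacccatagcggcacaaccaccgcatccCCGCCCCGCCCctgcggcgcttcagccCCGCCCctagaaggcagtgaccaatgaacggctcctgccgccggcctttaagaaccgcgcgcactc
Map1b, chr13:99516603-99516852 (- strand): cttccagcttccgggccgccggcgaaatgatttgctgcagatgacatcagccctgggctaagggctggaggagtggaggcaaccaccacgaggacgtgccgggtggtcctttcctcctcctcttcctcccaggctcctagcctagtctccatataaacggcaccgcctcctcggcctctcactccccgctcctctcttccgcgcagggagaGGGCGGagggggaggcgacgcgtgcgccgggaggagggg

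In the whole windows of 250 bases before the start site, GC boxes numbered 2 in Ina, 5 in Map2 (2 of them in the stretch shown), 4 in Map1a and 1 in Map1b, and 32.7% of 32851 RefSeq windows of this length held at least 1. The windows were GC-rich, at 70.8% G or C in Ina, 81.2% in Map2, 66.0% in Map1a and 66.4% in Map1b, beside a median of 52.4% over all windows. A TATA box (TATAAA on either strand, held by 12.4% of windows) was found only in Map1b among the 4, and an E box (CAGCTG, 13.0% of windows) only in Ina. The cAMP response element TGACGTCA and its core TGACG on either strand matched none of the 4, and 1.55% and 17.8% of all windows held them. These matches describe the letters only.

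Library totals lay between 13561511 and 34178417 counts. Camk2a, the gene whose promoter drives Cre, was at 1053 ± 184 CPM (counts relative to library size, TMM-scaled; mean ± SD, n = 3) in control input and 1710.1 ± 133 in control IP. Summed over 12 astrocyte markers, the 3 control libraries held 7799 to 9115 CPM in input and 7691 to 8291 in IP. AZD IP differed. There the same sum was 1960.0 to 2529 CPM, against 5448 to 6669 in AZD input and 4529.6 to 6003 in tumor IP, and the 15 pan-neuronal genes summed to 16981 to 18316 CPM, against 5966 to 8275 in tumor IP and 12758 to 15289.7 in control IP. The 13 glioma lineage markers summed to 5997 to 6793 CPM in tumor IP, against 511 to 673 for control and 732 to 967 for AZD, and none of the marker genes was at 0 in any group. Tumor IP was close to tumor input in 3 single markers of cells that should not carry the tag. Pdgfra, a marker of the glioma lineage, was at 2299 ± 307 CPM in IP and 2685 ± 539 in input. Gfap of astrocytes was at 402 ± 127 and 379 ± 148, and Gad1 of inhibitory neurons at 254 ± 69.9 and 269 ± 47.3 (SD, n = 3). Control IP was likewise close to control input in these 3 genes. There Pdgfra was at 95.5 ± 21.0 CPM in IP and 102 ± 23.6 in input, Gfap at 88.0 ± 3.09 and 88.7 ± 11.1, and Gad1 at 434 ± 29.0 and 437 ± 32.5 (SD, n = 3). Some marker sums were lower in IP without overlap. Endothelial and pericyte markers held 443 to 461 CPM in control input against 264 to 349 in IP. In tumor they held 378 to 407 against 281 to 305. Glioma lineage markers held 685 to 771 CPM in control input and 7553 to 9209 in tumor input. Astrocyte, oligodendrocyte and inhibitory neuron sums overlapped. Camk2a was at 430 ± 253 CPM in tumor input and 720 ± 150 in IP. Levels in tumor IP and in control IP cannot be taken as those of tagged neurons alone. The library codes in the labels have 3 prefixes. Control and tumor input share the first, control and tumor IP the second, and all AZD libraries carry the third, so a prefix is shared in tumor against control and in AZD IP against its input, while in the other comparisons of AZD, and in control or tumor IP against input, prefix and group cannot be told apart. Tumor replicate 1 had the lowest level of 9 of the 10 genes in tumor input and of 9 in tumor IP.

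Nefl, the light subunit, was at 362, 310.1 and 317 CPM in input from control, 70.2, 149 and 184 from tumor and 160.1, 215 and 276 from AZD mice (replicates 1 to 3). Its IP values stood at 518, 412 and 463 CPM for control, 132, 208 and 326 for tumor and 373, 572 and 562 for AZD. No tumor input or tumor IP library reached the lowest control library of its fraction, whereas the AZD IP values overlapped those of control IP. Ordered by group mean, Nefl ran from tumor input through AZD input, tumor IP, control input and control IP to AZD IP, and in that order only control input and control IP did not overlap. Nefm, the medium subunit, was at 69.2, 77.8 and 66.5 CPM in input from control, 14.8, 24.4 and 56.7 from tumor and 33.3, 53.2 and 39.0 from AZD mice (replicates 1 to 3). The IP values were 76.5, 54.7 and 63.6 CPM for control, 13.0, 26.1 and 30.2 for tumor and 52.5, 78.0 and 87.4 for AZD. Nefm fell furthest of the 10 genes in tumor IP, where all 3 libraries lay below the lowest control IP value. Tumor input replicate 3 stood well above the other tumor input libraries, so the input spread is wide. In the order of its means, tumor IP, tumor input, AZD input, control IP, control input and AZD IP, the gap without overlap lay between AZD input and control IP. Nefh, the heavy subunit, was at 52.1, 49.5 and 49.9 CPM in input from control, 15.5, 27.3 and 25.4 from tumor and 24.9, 21.8 and 27.3 from AZD mice (replicates 1 to 3). Its IP levels were 46.9, 36.1 and 39.7 CPM for control, 18.6, 24.0 and 21.7 for tumor and 29.8, 23.7 and 22.1 for AZD. Nefh was the one neurofilament gene for which AZD IP overlapped tumor IP and not control IP. The means were 40.9 ± 5.46 CPM (control IP), 21.4 ± 2.70 (tumor IP) and 25.2 ± 4.06 (AZD IP; SD, n = 3). All 6 control libraries lay above all 12 libraries of tumor and AZD mice. Ina, which copolymerises with these subunits, was at 85.4, 82.0 and 64.6 CPM in input from control, 29.9, 42.1 and 53.9 from tumor and 38.1, 43.4 and 50.7 from AZD mice (replicates 1 to 3). IP libraries gave 110.4, 91.0 and 98.1 CPM for control, 38.7, 55.2 and 60.4 for tumor and 73.2, 93.1 and 103 for AZD. Ina was low in tumor libraries of both fractions and in AZD input, and AZD IP overlapped control IP. Its mean order was tumor input, AZD input, tumor IP, control input, AZD IP and control IP, and the only neighbours that did not overlap were tumor IP and control input.

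Mapt, which encodes tau, was at 438, 439.5 and 395 CPM in input from control, 216, 309.6 and 322 from tumor and 284, 344 and 360.4 from AZD mice (replicates 1 to 3). In IP the values were 479, 458 and 450.3 CPM for control, 238, 313 and 336 for tumor and 463, 607 and 559 for AZD. The AZD IP values of Mapt overlapped those of control IP, and its mean order was tumor input, tumor IP, AZD input, control input, control IP and AZD IP. AZD input and control input did not overlap, nor did control input and control IP. Map2, the dendritic protein, was at 1272, 1523 and 1718 CPM in input from control, 911, 1298 and 1318 from tumor and 1058, 1045 and 1135 from AZD mice (replicates 1 to 3). In IP it was at 1190.5, 1959.5 and 1387 CPM for control, 919.6, 1196 and 1219 for tumor and 1263, 1134 and 1052 for AZD. Map2 varied little by comparison: each neighbouring pair of groups overlapped in the order AZD input, tumor IP, AZD IP, tumor input, control input and control IP. Map1a, of mature neurons, was at 1652, 1773 and 1643 CPM in input from control, 423, 825 and 1036 from tumor and 664, 1024 and 878 from AZD mice (replicates 1 to 3). The IP libraries held 1247, 1834 and 1360.3 CPM for control, 462, 730.5 and 799.6 for tumor and 693, 1097 and 1052 for AZD. For Map1a every tumor and AZD library lay below every control library. The mean order was tumor IP, tumor input, AZD input, AZD IP, control IP and control input, and only AZD IP and control IP did not overlap. Map1b, of growing axons, was at 2175, 2337 and 2199 CPM in input from control, 804, 1342 and 1394 from tumor and 1249.7, 1287 and 1303 from AZD mice (replicates 1 to 3). Its IP values were 1827, 2458 and 1769.9 CPM for control, 955, 1244 and 1075 for tumor and 1796, 1707 and 1532 for AZD. Map1b had the same mean order as Map1a, but the separation lay between AZD input and AZD IP, and AZD IP overlapped control IP.

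Stmn2, the tubulin-binding protein of growth cones, was at 195, 229 and 186 CPM in input from control, 58.4, 103 and 121 from tumor and 152, 165 and 140.2 from AZD mice (replicates 1 to 3). In the pull-down it was at 332, 289 and 285 CPM for control, 133, 189 and 155 for tumor and 426, 401 and 418 for AZD. Stmn2 was the gene of the group with the highest AZD IP level relative to control IP, and all 3 AZD IP libraries exceeded all 3 of control IP. Its mean order was tumor input, AZD input, tumor IP, control input, control IP and AZD IP, with no overlap between tumor input and AZD input, between control input and control IP, or between control IP and AZD IP. Gap43, the growth cone phosphoprotein, was at 189, 178 and 154 CPM in input from control, 152, 160.3 and 148 from tumor and 204, 170.4 and 158 from AZD mice (replicates 1 to 3). Its IP libraries gave 199.6, 193 and 185 CPM for control, 155, 157 and 147 for tumor and 293, 219 and 207 for AZD. Gap43 spanned a narrow range. Its tumor IP libraries all lay below those of control IP, and its mean order was tumor IP, tumor input, control input, AZD input, control IP and AZD IP, with only control IP and AZD IP apart.

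**Figure D1:**
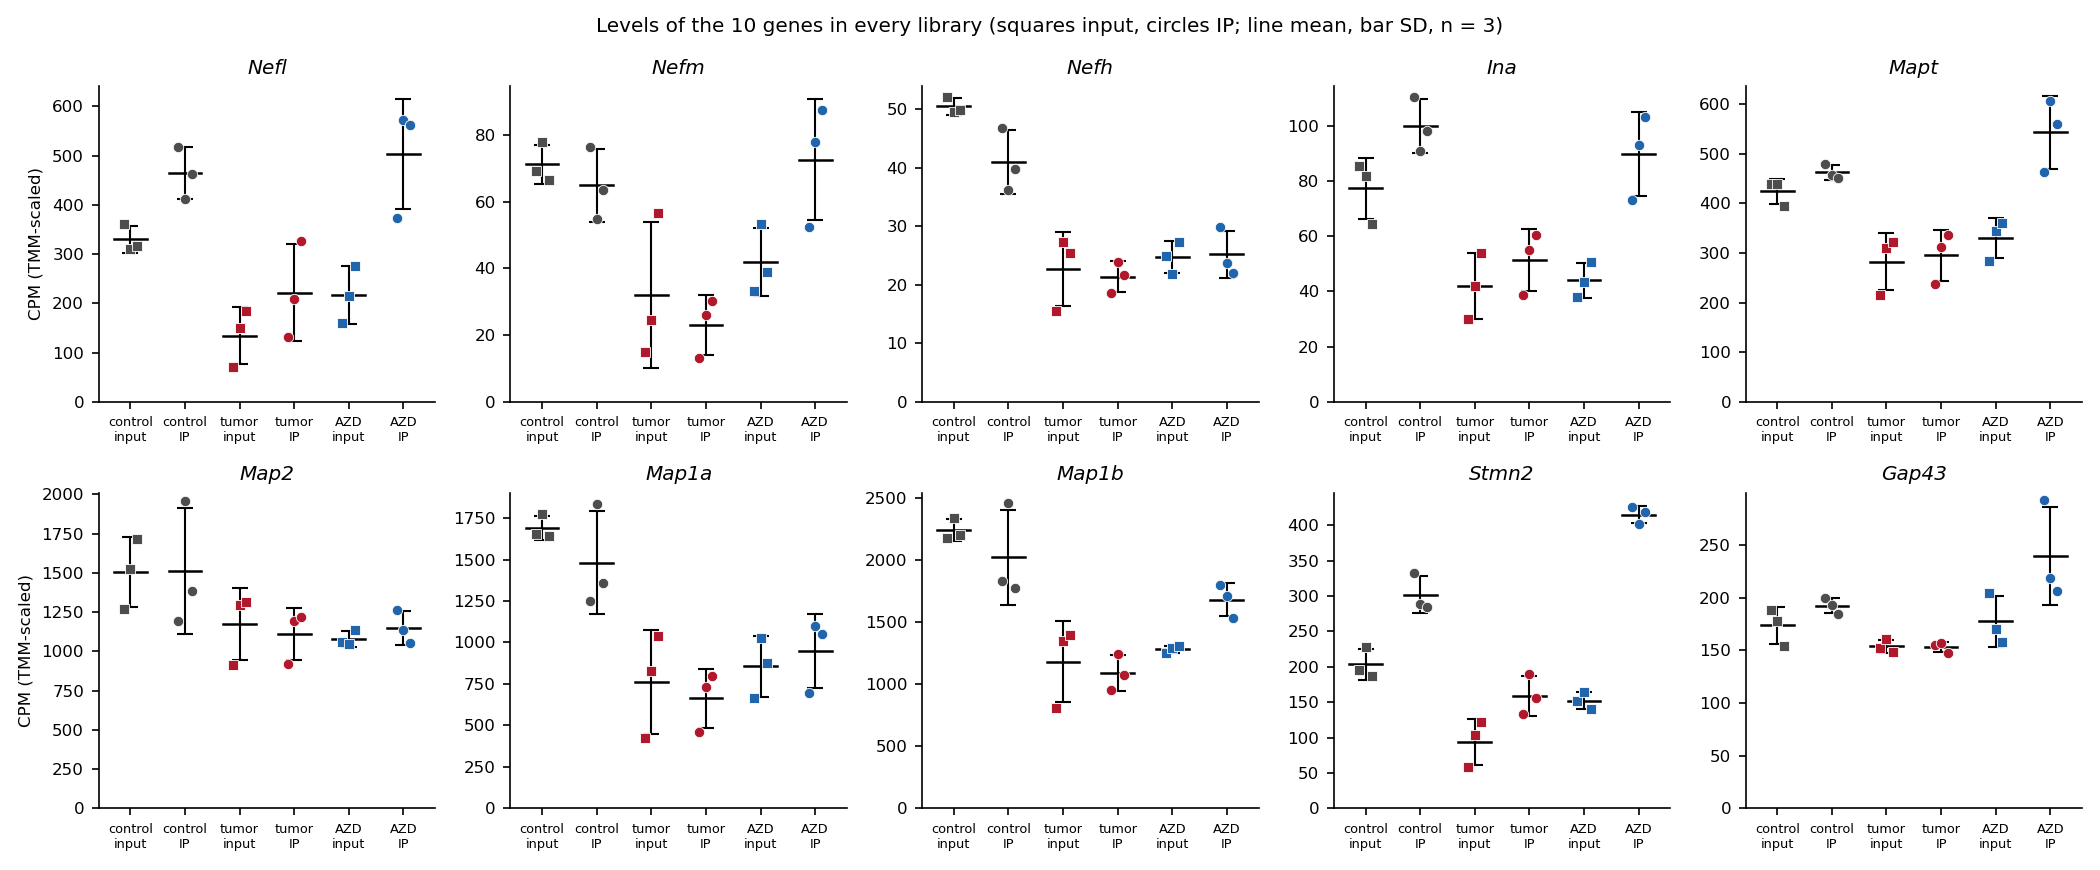
Level of each of the 10 genes in every library, in CPM scaled by TMM, by group of condition and fraction (squares input, circles IP; line mean, bar SD, n = 3; each panel has its own axis, starting at 0). Nefl, Nefm, Ina, Mapt and Stmn2 are lower in tumor than in control, and higher in AZD IP than in tumor IP. Treatment and library prefix cannot be told apart in AZD IP against tumor IP. Nefh and Map1a are low in AZD IP as well (means 25.2 and 947 CPM), and Map2 and Gap43 vary least.

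Tumor IP against control IP asks how these messages differed in the pull-down of tumor-bearing mice. In tumor IP 8 of the 10 genes fell and none rose (edgeR quasi-likelihood test, Benjamini-Hochberg adjusted p under 0.05 over all genes), while 26.1% of all tested genes were higher and 20.9% lower. Nefm fell by the most, with a log2 fold of -1.45 ± 0.28 (SE; edgeR adjusted p = 0.00168), which is 2.74-fold lower. Nefl fell 2.05-fold (log2 -1.04 ± 0.28, edgeR adjusted p = 0.0107), and Nefh and Ina 1.87-fold and 1.90-fold, with log2 folds of -0.91 ± 0.14 and -0.93 ± 0.17. Among the microtubule proteins, Map1a fell 2.19-fold (log2 -1.13 ± 0.24, edgeR adjusted p = 0.003), Map1b 1.82-fold and Mapt 1.54-fold. Stmn2 fell 1.86-fold (log2 -0.90 ± 0.12, edgeR adjusted p = 0.000252). Map2, with a log2 fold of -0.42 ± 0.18, and Gap43, with -0.30 ± 0.12, did not pass (edgeR adjusted p = 0.083 and 0.0641). DESeq2 called both (adjusted p = 0.0237 and 0.0212), and in that fit 24.4% of all tested genes were higher and 24.6% lower. Each of the 8 stayed called when any 1 control or tumor IP library was left out, and Map2 joined them without control IP replicate 1 (log2 -0.57, edgeR adjusted p = 0.0322). The median log2 fold was -0.90 over the 10 genes, -0.87 over 15 pan-neuronal genes, of which 13 fell, and 0.020 over all genes. In bulk RNA fewer neurons and less message in each neuron cannot be told apart. With libraries scaled so that the median of the pan-neuronal genes is equal, Nefm alone was lower (log2 -0.63, edgeR adjusted p = 0.0188) and Gap43 was higher (log2 0.58, edgeR adjusted p = 0.0086). On that scale 71.6% of all tested genes were higher and 0.191% lower. The other 8 did not pass, with values down to -0.31 for Map1a and up to 0.42 for Map2. Glioma lineage markers rose in 13 of 13 and proliferation markers in 12 of 12 in the same comparison. Of the oligodendrocyte markers 8 of 11 fell and 1 rose, with a median log2 fold of -1.14 and a summed level of 2607 to 3252 CPM for control IP against 1039 to 2085 for tumor IP. Of the astrocyte markers 6 of 12 fell and 3 rose, and of the inhibitory neuron markers 8 of 14 fell, so the fall was not limited to genes of excitatory neurons. The part of these cells in the result was not tested.

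**Figure D2:**
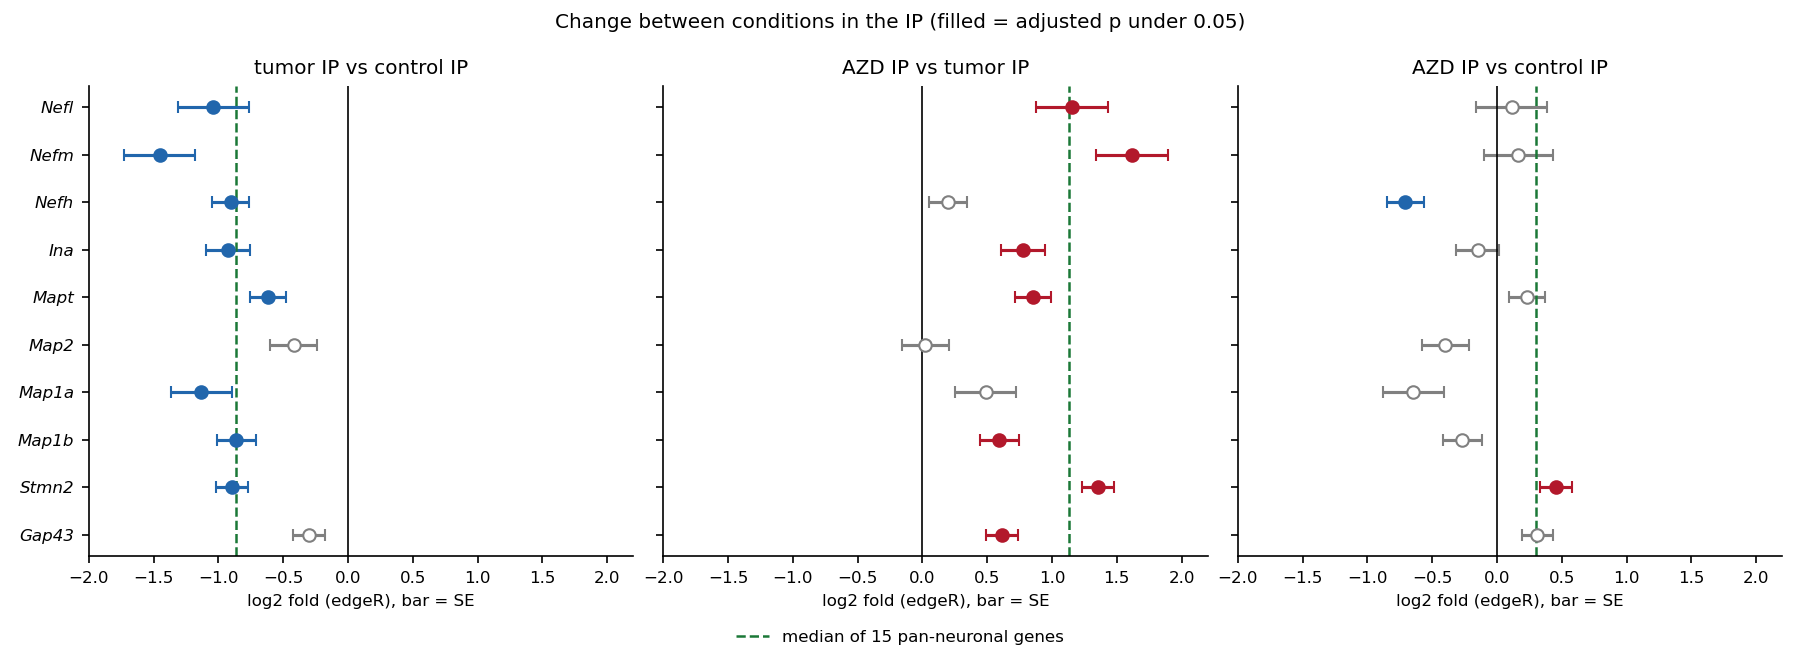
Log2 fold of each gene between conditions in the IP (edgeR, bar = SE; filled symbols, adjusted p under 0.05; dashed line, median of the 15 pan-neuronal genes). In tumor IP the genes scatter around the pan-neuronal median of -0.87, whereas in AZD IP against tumor IP only Nefl, Nefm and Stmn2 reach the pan-neuronal median of 1.13.

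Related gene families, which include genes of other cells such as Nes, Vim and Gfap, did not all move this way in tumor IP. Their counts are to be read beside the 26.1% of all tested genes that were higher and 20.9% lower. Of the other intermediate filament genes 3 of 5 rose and 0 fell: Nes (log2 3.67 ± 0.34), Vim (3.04 ± 0.36) and Gfap (2.22 ± 0.34), filaments of progenitors, mesenchymal cells and astrocytes, passed, while Prph and Synm did not (edgeR adjusted p = 0.284 and 0.866). Of the tubulins 4 of 14 rose and 5 fell, with reads of these near-identical genes hard to assign to a single copy. Tuba1c (log2 4.58 ± 0.44) and Tubb6 (2.84 ± 0.48) rose, and Tuba4a (-1.05 ± 0.15) and Tubg2 (-0.82 ± 0.14) fell. All 3 other stathmins fell, with log2 folds of -0.81 ± 0.24 for Stmn1, -0.53 ± 0.13 for Stmn3 and -0.91 ± 0.19 for Stmn4. Among other microtubule-associated proteins 3 of 24 rose and 16 fell, with a median of -0.55. Map6, which stabilises microtubules against cold, fell (log2 -0.72 ± 0.11), and Mapre1, a plus-end tracking protein, and Dcx, a marker of immature neurons, rose (0.83 ± 0.10 and 1.29 ± 0.21). In the collapsin response mediator family, cytosolic proteins that bind tubulin, 1 of 5 rose and 3 fell: Dpysl3 rose (log2 2.34 ± 0.090) and Crmp1 fell (-0.68 ± 0.12). Genes of growth cones and axon regrowth split evenly, as 5 of 12 rose and 5 fell. Marcks (1.24 ± 0.10), Marcksl1 (1.72 ± 0.16), Sox11 (1.26 ± 0.11) and Atf3 (3.07 ± 0.39) rose, and these are also expressed outside neurons. Of the kinases and phosphatases that act on tau and neurofilaments 1 of 18 rose and 13 fell; Cdk5r2, an activator of Cdk5, had a log2 fold of -1.30 ± 0.21, and Ppp3cb, a calcineurin subunit, -0.66 ± 0.11. Among genes of the axon initial segment, the node and axonal transport 4 of 19 rose and 10 fell, with Klc2 (-1.01 ± 0.16) and Kif5c (-0.74 ± 0.12), parts of the kinesin motor, among those that fell. On the pan-neuronal scale, where the median gene shifts to 0.89 in this comparison, 71.6% of all tested genes were higher and 0.191% lower, so that counts there say nothing particular of a list: 10 of 14 tubulins were higher and 0 lower, 1 of 3 other stathmins were higher and 0 lower and 11 of 24 other microtubule-associated proteins were higher and 0 lower. By the same fit 3 of 5 collapsin response mediators were higher and 0 lower, 8 of 12 growth cone and axon regrowth genes were higher and 0 lower, 9 of 18 tau and neurofilament kinases and phosphatases were higher and 1 lower and 14 of 19 genes of the axon initial segment, node and transport were higher and 0 lower.

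AZD IP against tumor IP compares tumor-bearing mice with and without the mTOR inhibitor, but treatment and library prefix cannot be told apart in it. There 7 of the 10 genes were higher and none lower, while 25.1% of all tested genes were higher and 33.5% lower. Nefm was 3.07-fold higher (log2 1.62 ± 0.28, edgeR adjusted p = 0.000536), Stmn2 2.56-fold (log2 1.36 ± 0.13, edgeR adjusted p = 9.19e-06) and Nefl 2.22-fold (log2 1.15 ± 0.28, edgeR adjusted p = 0.00451). Smaller rises were seen for Mapt (log2 0.85 ± 0.14), Ina (0.78 ± 0.17), Gap43 (0.62 ± 0.12) and Map1b (0.59 ± 0.15). Nefh (0.20 ± 0.14), Map2 (0.021 ± 0.18) and Map1a (0.49 ± 0.24) did not pass (edgeR adjusted p = 0.261, 0.928 and 0.0975). The 7 stayed called with any 1 AZD or tumor IP library left out, and Map1a joined them without AZD IP replicate 1, its lowest AZD IP library (log2 0.67, edgeR adjusted p = 0.031). The median log2 fold was 0.70 over the 10 genes, 1.13 over the pan-neuronal genes and -0.094 over all genes. Scaled to the pan-neuronal genes, Nefm was higher (log2 0.53, edgeR adjusted p = 0.0352), and Map2 (-1.10), Nefh (-0.91), Map1a (-0.62), Map1b (-0.53) and Gap43 (-0.52) were lower, while 0.292% of all tested genes were higher and 84.3% lower on that scale. Nefl (0.046), Ina (-0.34), Mapt (-0.27) and Stmn2 (0.25) did not pass there. In this comparison markers of other cells fell together: 12 of 12 for astrocytes, 11 of 11 for oligodendrocytes, 11 of 11 for microglia, 10 of 10 for vessels, 13 of 13 for the glioma lineage and 12 of 14 for inhibitory neurons. Gad1, which marks inhibitory neurons, was at 254 ± 69.9 CPM in tumor IP and 85.2 ± 31.5 in AZD IP, and Slc17a7, which marks excitatory neurons, at 615 ± 80.2 and 1308 ± 199 (SD, n = 3). The part of this in the rise of the 7 genes was not tested.

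Related groups differed in their counts between tumor IP and AZD IP, against 25.1% of all tested genes higher and 33.5% lower. The shares of axon genes and of lower tubulins lay near these. All 3 other stathmins rose, by 1.24 ± 0.13 on the log2 scale for Stmn3, 1.55 ± 0.24 for Stmn1 and 0.81 ± 0.19 for Stmn4. Of the tubulins 7 of 14 rose and 3 fell; Tuba4a (1.33 ± 0.15) and Tubg2 (1.07 ± 0.14) rose, and Tubb2b (-2.68 ± 0.37) and Tuba1c (-2.57 ± 0.38) fell. Among other microtubule-associated proteins 14 of 24 rose and 3 fell, including Map1lc3a (0.80 ± 0.091), an autophagy protein, and Clip1 (0.80 ± 0.10) among the rises and Dcx (-1.94 ± 0.21) and Mapre1 (-0.86 ± 0.10) among the falls. Nes (-2.90 ± 0.33), Gfap (-2.63 ± 0.35) and Vim (-2.22 ± 0.35) fell, and of the kinases and phosphatases 10 of 18 rose and 1 fell, led by Cdk5, a neuronal kinase of both tau and neurofilaments (1.02 ± 0.10). In the collapsin response mediator family 3 of 5 rose and 2 fell, in growth cone and regrowth genes 6 of 12 rose and 5 fell, and in axon initial segment, node and transport genes 7 of 19 rose and 5 fell. On the pan-neuronal scale the median gene shifted to -1.23 in this comparison, where 0.292% of all tested genes were higher and 84.3% lower, so that counts there too say nothing particular of a list: 0 of 14 tubulins were higher and 9 lower, 0 of 3 other stathmins were higher and 0 lower and 0 of 24 other microtubule-associated proteins were higher and 19 lower. By the same fit 0 of 5 collapsin response mediators were higher and 3 lower, 0 of 12 growth cone and axon regrowth genes were higher and 9 lower, 0 of 18 tau and neurofilament kinases and phosphatases were higher and 14 lower and 0 of 19 genes of the axon initial segment, node and transport were higher and 17 lower.

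AZD IP was also set against control IP, from mice without tumor, but here too prefix and group cannot be told apart. Summed astrocyte markers were at 1960.0 to 2529 CPM in AZD IP against 7691 to 8291 in control IP. Pan-neuronal genes summed to 16981 to 18316 CPM against 12758 to 15289.7. Glioma lineage markers went the other way from astrocyte markers, at 732 to 967 CPM against 511 to 673. The part of these differences in the levels was not tested. Of the 10 genes 1 was higher and 1 lower, while 16% of all tested genes were higher and 17.4% lower. Stmn2 was 1.37-fold higher than in control IP (log2 0.46 ± 0.12, edgeR adjusted p = 0.016), a call lost without control IP replicate 2 or 3 (log2 0.43 and 0.43, edgeR adjusted p = 0.0691 and 0.0638). Nefh was 1.63-fold lower (log2 -0.71 ± 0.14, edgeR adjusted p = 0.00382) and stayed called with any 1 AZD or control IP library left out. Map1a, with no overlap between groups, had a log2 fold of -0.64 ± 0.24 (edgeR adjusted p = 0.057), and Gap43, also without overlap, 0.31 ± 0.12 (edgeR adjusted p = 0.0726). DESeq2 called both (adjusted p = 0.0227 and 0.0365), and in that fit 18.8% of all tested genes were higher and 17.4% lower. Gap43 also passed without AZD IP replicate 3 (log2 0.41, edgeR adjusted p = 0.0321), and Map2 without control IP replicate 1 (log2 -0.55, edgeR adjusted p = 0.0455). The 95% intervals of the log2 fold, from the t distribution on the fit's 10.70 degrees of freedom, ran from -0.49 to 0.72 for Nefl, from -0.42 to 0.75 for Nefm and from -0.52 to 0.22 for Ina, and a gene that did not pass is not thereby shown to be at its control level. On the pan-neuronal scale Nefh (-0.96), Map1a (-0.93), Map2 (-0.68) and Map1b (-0.54) were lower in AZD IP than in control IP and Stmn2 (0.20) did not pass, while 2.49% of all tested genes were higher and 22.7% lower. This comparison and the previous ones share their IP libraries, so they are not independent of each other.

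Input RNA holds all cells of the tissue. Compared with control input, 8 of the 10 genes were lower in tumor input and none higher, while 24.5% of all tested genes were higher and 23.6% lower. The largest fall in input was that of Nefl (log2 -1.31 ± 0.30, edgeR adjusted p = 0.00471), followed by Nefm (-1.18 ± 0.37), Nefh (-1.17 ± 0.18), Map1a (-1.17 ± 0.27) and Stmn2 (-1.12 ± 0.21). Map1b (-0.94 ± 0.18), Ina (-0.90 ± 0.20) and Mapt (-0.60 ± 0.15) also fell, and Map2 (-0.37 ± 0.16) and Gap43 (-0.19 ± 0.12) did not pass. The call for Nefm was lost without control input replicate 1, 2 or 3 or tumor input replicate 2 (edgeR adjusted p = 0.0566, 0.0674, 0.0506 and 0.0758, log2 folds from -1.23 to -1.02). Scaled to the pan-neuronal genes, Nefl was lower in tumor input (log2 -0.50, edgeR adjusted p = 0.0467), Map2 (0.50) and Gap43 (0.74) were higher, and the other 7 did not pass, while 67.2% of all tested genes were higher and 0.625% lower. Of the oligodendrocyte markers 9 of 11 fell in tumor input as well and 1, Ugt8a, rose (log2 1.28 ± 0.13). Their median log2 fold was -1.18, with summed levels of 3229 to 3567 CPM in control and 1264 to 2353 in tumor input. The part of these cells in the lower levels was not tested. AZD input against tumor input gave 1 gene higher and none lower, while 7.89% of all tested genes were higher and 9.17% lower. That gene was Stmn2 (log2 0.72 ± 0.21, edgeR adjusted p = 0.0409), and its call was lost without tumor input replicate 2 or AZD input replicate 1, 2 or 3 (log2 0.79, 0.72, 0.67 and 0.78, edgeR adjusted p from 0.0593 to 0.122). Without tumor input replicate 3, Nefl (log2 1.00) and Nefm (1.11) passed as well. Compared with control input, 5 genes were lower in AZD input and none higher, while 20.7% of all tested genes were higher and 16% lower. They were Nefh (log2 -1.02 ± 0.18), Map1a (-0.97 ± 0.27), Ina (-0.80 ± 0.20), Map1b (-0.79 ± 0.18) and Map2 (-0.46 ± 0.16). Map2 lost its call without control input replicate 2 or 3 or any AZD input library (edgeR adjusted p from 0.0742 to 0.16), and Map1a without control input replicate 2 or AZD input replicate 1 (edgeR adjusted p = 0.0558 and 0.0661).

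IP against input within a condition shows whether a message was richer in the pull-down than in the tissue. In control, Nefl (log2 0.48 ± 0.10, edgeR adjusted p = 0.00255), Stmn2 (0.56 ± 0.10, 0.000992) and Ina (0.35 ± 0.11, 0.0233) were higher in IP and Nefh was lower (-0.32 ± 0.10, 0.0225), while 17.7% of all tested genes were higher and 18.8% lower. The calls of Nefh and Ina were lost without control IP replicate 3 (edgeR adjusted p = 0.0865 and 0.0524), that of Nefh also without control input replicate 1 or control IP replicate 2 (0.0554 and 0.0883), and that of Ina without control input replicate 3 or control IP replicate 1 (0.0806 and 0.0883). Without control IP replicate 2, Map1a (-0.39) and Map1b (-0.33) were lower in IP too. In tumor, where the study itself used this comparison to find neuronally enriched genes, none of the 10 genes passed (edgeR), while 2.11% of all tested genes were higher and 2.98% lower. Stmn2 alone had an unadjusted p under 0.05, and DESeq2 called 0. Input and IP libraries of the same number varied together, and with that number as a block the same libraries gave Nefl (log2 0.74, edgeR adjusted p = 4.16e-07), Stmn2 (0.81, 2.01e-06) and Ina (0.31, 0.00716) as higher in tumor IP and Nefm as lower (-0.36, 0.0354). In the blocked fit 17.6% of all tested genes were higher and 18.1% lower, so 4 of the 10 genes is near the share of all genes. In AZD, 7 genes were higher in IP and none lower, while 29% of all tested genes were higher and 32.5% lower. They were Stmn2 (log2 1.47 ± 0.093, edgeR adjusted p = 2.4e-05), Nefl (1.24 ± 0.22), Ina (1.06 ± 0.15), Nefm (0.83 ± 0.22), Mapt (0.75 ± 0.13), Gap43 (0.45 ± 0.15) and Map1b (0.41 ± 0.10). The call for Gap43 was lost without AZD IP replicate 1 (edgeR adjusted p = 0.0578), AZD input replicate 2 (0.0731) or AZD input replicate 3 (0.0798). With plain library totals 4 of the 7 passed, and Nefm (0.55), Map1b (0.13) and Gap43 (0.17) did not, while 15.3% of all tested genes were higher and 44% lower. All 15 pan-neuronal genes were higher in AZD IP than in AZD input, with a median of 1.22 against 0.60 for the 10 genes, and on the pan-neuronal scale Nefh (-1.18), Map2 (-1.11), Map1a (-1.04), Map1b (-0.81), Gap43 (-0.78) and Mapt (-0.48) were lower in AZD IP, while 0.18% of all tested genes were higher and 90.6% lower.

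Whether IP enrichment itself differed was tested as a contrast over all 18 libraries. Between tumor and control, none of the 10 genes passed (edgeR), while 0.05% of all tested genes were higher and 0.0187% lower. At an unadjusted p under 0.05 their number was also 0, and it was 0 with DESeq2. Between AZD and tumor, IP enrichment of Mapt was higher in AZD (log2 difference 0.66 ± 0.22, edgeR adjusted p = 0.0302) and no other gene passed, while 12.3% of all tested genes were higher and 20.8% lower. The Mapt call was lost without tumor input replicate 2 or 3 (log2 0.59 and 0.56), tumor IP replicate 1 (0.52), AZD input replicate 1 (0.56) or AZD IP replicate 2 (0.58), with edgeR adjusted p from 0.0737 to 0.0806. With the replicate number as a block 7 genes passed, all higher in AZD: Nefm (log2 1.15, edgeR adjusted p = 0.000157), Ina (0.72), Stmn2 (0.65), Mapt (0.65), Nefl (0.48), Map1b (0.47) and Gap43 (0.43). In the blocked fit 21.8% of all tested genes were higher and 28.4% lower. The block is uncertain for AZD, where not every library correlated best with the one of its own number. Within numbered pairs, Stmn2 in IP exceeded input by 0.77, 0.34 and 0.61 on the log2 scale in control, by 1.18, 0.87 and 0.35 in tumor and by 1.48, 1.28 and 1.57 in AZD. All 3 AZD pairs thus lay above all pairs of the other conditions.

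To set each gene beside the neuronal RNA of its own library, log2 CPM was also expressed as a difference from the median of the 15 pan-neuronal genes in that library. These are levels relative to other neuronal messages, given without a test. Nefh stood at -3.76, -3.90 and -3.71 (control IP), -4.10, -4.21 and -3.94 (tumor IP) and -4.94, -4.92 and -4.78 (AZD IP). The 3 groups did not overlap, and the mean difference of AZD IP from control IP was -1.09. Nefm was at -3.06, -3.31 and -3.03 (control IP), -4.59, -4.09 and -3.47 (tumor IP) and -4.14, -3.22 and -2.81 (AZD IP). Tumor IP lay below control IP without overlap, by a mean difference of -0.92, and AZD IP overlapped both. Stmn2 in tumor IP lay below control IP (difference -0.31, no overlap, but -0.030 relative to 16 excitatory neuron markers) and overlapped control IP in AZD IP (difference 0.064). Map2, Map1a and Map1b were lower in AZD IP than in control IP without overlap, by differences of -0.77, -1.05 and -0.65, whereas for Map2 the tumor IP and control IP libraries overlapped (0.20). Gap43 was the gene with the highest tumor IP level relative to control IP, -1.07, -1.53 and -1.21 against -1.68, -1.50 and -1.50, and those groups overlapped; in input the difference of 0.55 came without overlap. The choice of reference list matters. With 16 excitatory neuron markers in place of the pan-neuronal genes, the difference between AZD IP and control IP became -0.44 for Nefh, -0.41 for Map1a, -0.12 for Map2, -0.0066 for Map1b and 0.71 for Stmn2, and that between tumor IP and control IP became -0.64 for Nefm, -0.014 for Nefh and 0.58 for Gap43.

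**Figure D3:**
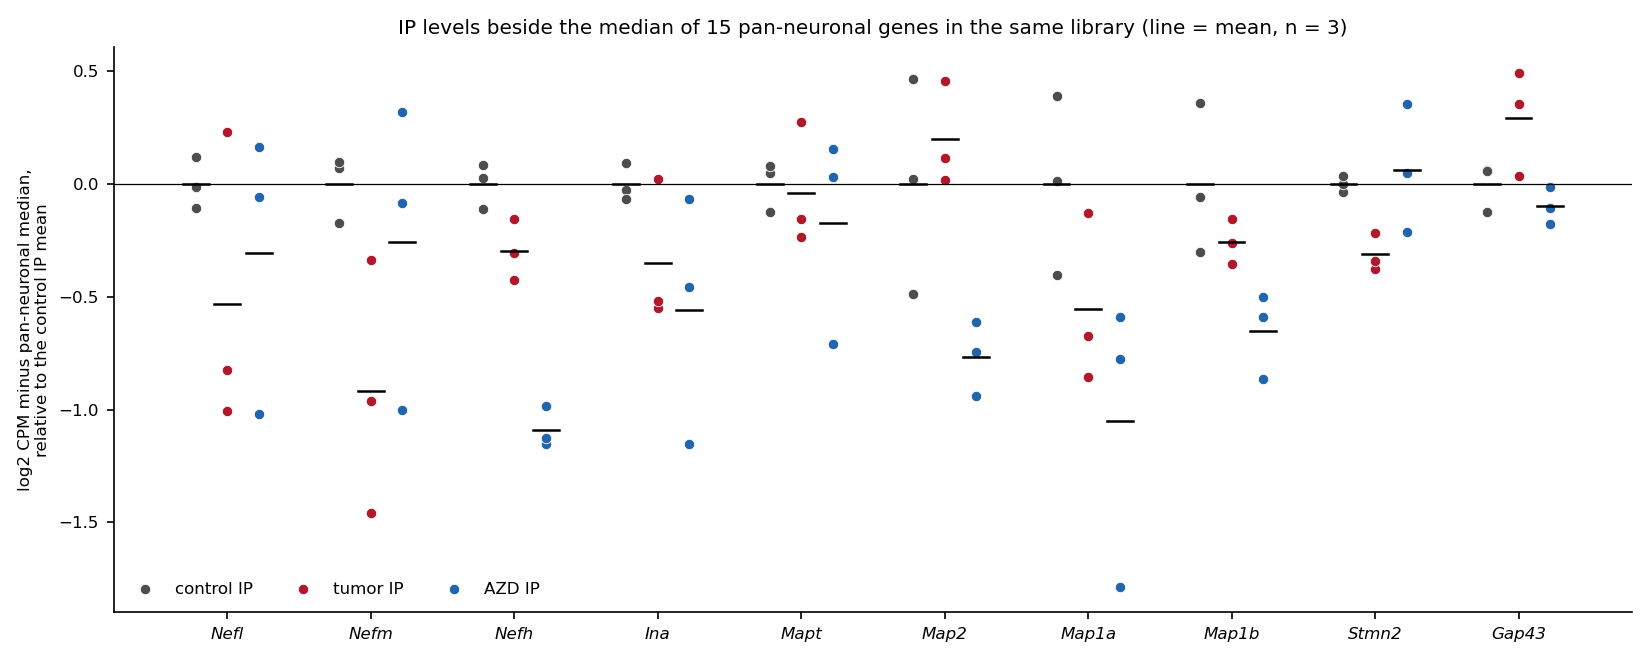
IP level of each gene relative to the median of 15 pan-neuronal genes in the same library, in log2 units centred on the control IP mean (points, libraries; line, mean, n = 3). AZD IP libraries of Nefh, Map2, Map1a and Map1b all lie below the control IP libraries, at mean differences of -1.09, -0.77, -1.05 and -0.65.

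Ratios of 2 of the genes within a library do not depend on how libraries are scaled. They are ratios of counts, not corrected for transcript length, so they are compared between libraries and do not give the proportions of the proteins. The 6 ratios were compared in 9 pairs of groups, which made 54 exact permutation tests (two-sided), and with 3 libraries a group the smallest p such a test can give is 0.1. After Benjamini-Hochberg adjustment the smallest was 0.318, so no ratio passed, and what follows gives sizes and overlap. The heavy to light neurofilament ratio, Nefh/Nefl in log2 units, was -2.79, -2.65 and -2.67 for control input against -3.47, -3.51 and -3.54 for IP. Tumor input gave -2.18, -2.45 and -2.86 and its IP -2.82, -3.12 and -3.91, and AZD input -2.68, -3.30 and -3.34 and its IP -3.65, -4.59 and -4.67. It was lower in IP than in input in 9 of 9 numbered pairs, and lower in AZD IP than in control IP without overlap (log2 difference -0.79, exact permutation p = 0.1). Nefm/Nefl was lower in IP than in input in 8 of 9 pairs. Its mean was -3.25 ± 0.23 (SD, n = 3) in tumor IP, against -2.85 ± 0.079 for control and -2.80 ± 0.10 for AZD, and tumor IP overlapped neither of the others (log2 differences -0.41 from control IP, and 0.46 for AZD IP minus tumor IP). Gap43/Nefl was lower in IP in 9 of 9 pairs, and in input it was higher in tumor than in control without overlap (log2 difference 1.23). The dendritic to axonal ratio Map2/Mapt was 1.95, 1.93 and 1.86 in tumor IP and 1.45, 0.90 and 0.91 in AZD IP, which did not overlap (log2 difference -0.83), while control IP, at 1.31, 2.10 and 1.62, overlapped both. Ina/Nefl was lower in IP in 7 of 9 pairs and Map1b/Map1a in 3 of 9. Map1b/Map1a was higher in tumor input than in control input without overlap (log2 difference 0.28).

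**Figure D4:**
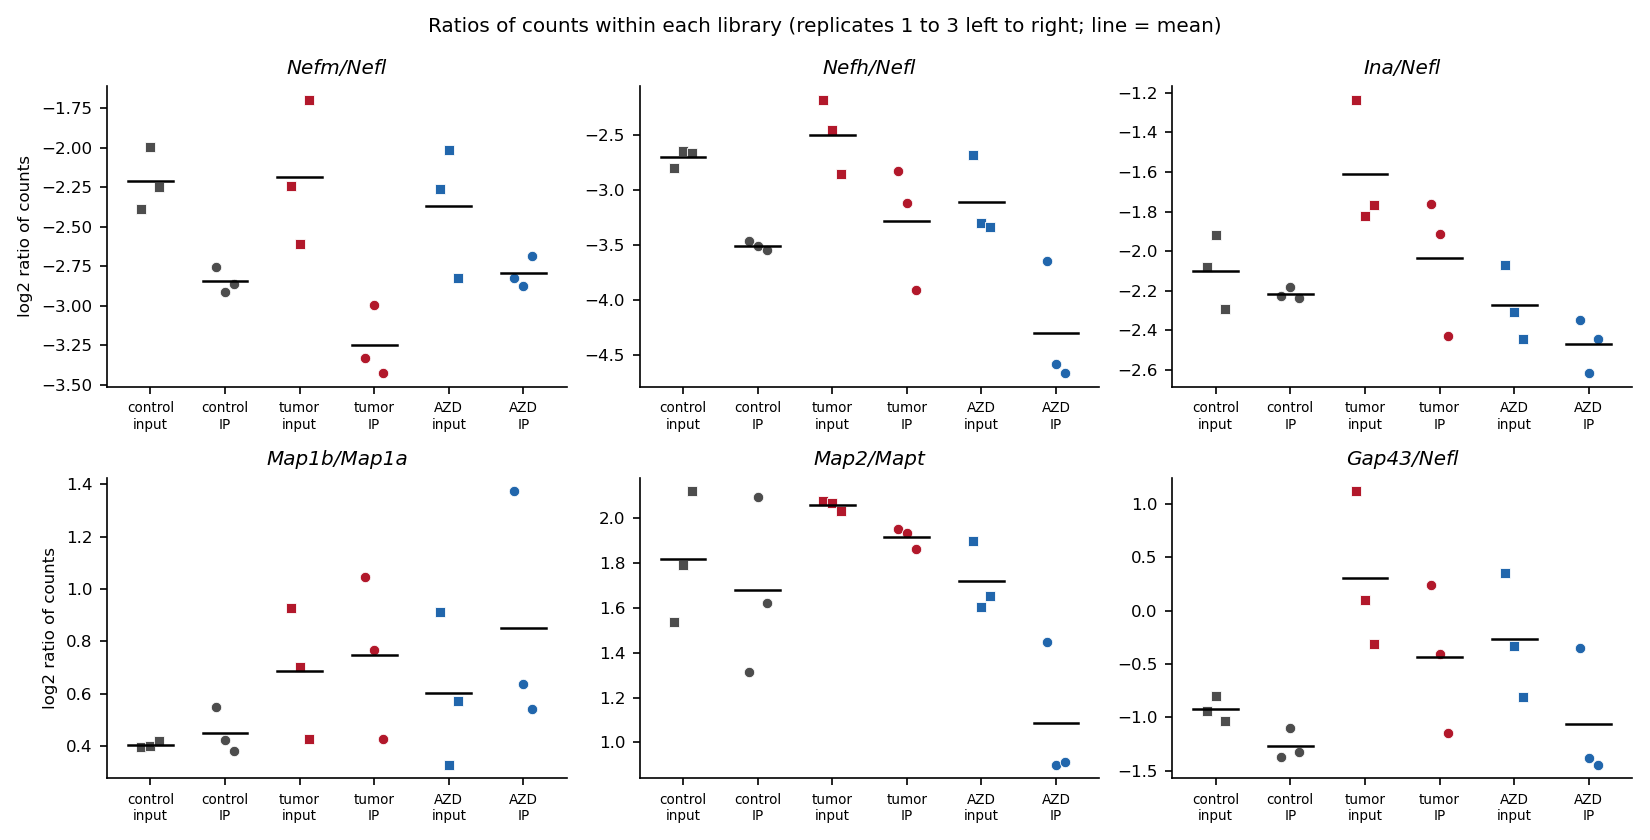
Log2 ratios of raw counts of gene pairs within each library, by group (squares input, circles IP; replicates 1 to 3 from left to right; line, mean; each panel has its own axis, which does not start at 0). Nefh/Nefl is lower in IP than in input in each of the 9 numbered pairs, and AZD IP has the lowest mean, -4.30 ± 0.57 (SD, n = 3).

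Finally, genes of at least 10 CPM whose 6 group means of log2 CPM, centred on their average, lay closest to each gene described here were listed by root mean square distance. The distance covers 6 means of 3 libraries, and nothing is drawn from it about shared function. Stmn2 was closest to Snap25 (distance 0.086), a presynaptic gene of the pan-neuronal list. Nefl was closest to Gda, Kcnj9 and Ipcef1 (0.034 to 0.091), and Nefm, whose pattern was the least matched, to Epha10, Grm8 and Tmem25 (0.16 to 0.17). Nefh was closest to Pde1b, Far2 and Nrsn1 (0.063 to 0.093) and Map1a to Lpcat4, Tmem44 and Nrsn1 (0.082 to 0.10), with Nrsn1 in both lists. Mapt was closest to Add2, Atp2b4 and Rps6kl1 (0.027 to 0.029) and Map1b to Pnkd, Speg and Fam189b (0.058 to 0.069). Map2 (Ccng1, Sik3 and Ric8b, 0.034 to 0.049) and Gap43 (Coq9, Fbxo21 and Ip6k1, 0.024 to 0.030) varied least over the groups, spanning 0.47 and 0.63 log2 units between the highest and lowest group mean, against 1.98 for Nefl.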

How the data were processed

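Per the labels, RNA went through RNeasy Mini columns into NEBNext Ultra Directional libraries. STAR, DESeq2 and mm10 are named, without versions, in the submitters' processing notes. The annotation, the counting tool and its strand setting appear nowhere in the sources used here, so reads of antisense or overlapping genes may be included. The authors deposited raw counts per gene symbol, not normalized. Here libraries were scaled by TMM and genes kept by filterByExpr. Differences were tested with the quasi-likelihood F test of edgeR 4.0.16 under R 4.3.3 and Benjamini-Hochberg adjustment over all genes, called at 0.05. Standard errors are the log2 fold divided by the root of F. IP and input were compared in a fit of each condition, conditions in a fit of each fraction, and IP minus input in a fit of all 18 libraries. CPM are TMM-scaled over all libraries. Ratios used a pseudocount of 0.5 counts. The 10 genes and all gene lists were chosen with earlier results of these data known. From each other list, a comparison could name at most 4 genes by smallest adjusted p and 2 not passing, besides 3 nearest genes for each of the 10 and a few fixed marker genes. The same number paired IP with input: across 10329 genes, deviations from the group mean correlated at 0.316 to 0.339 (control), 0.653 to 0.894 (tumor) and 0.257 to 0.642 (AZD). The pairing is read from these correlations and the shared numbers. In control and tumor each library correlated best with the one of its own number, but in AZD not every library did. Libraries of the same number in different conditions also reached 0.454 (AZD input and tumor input, replicate 1). The AZD pairs are therefore uncertain. The fit without the block was kept as main. Some nearest genes, those of Ina among them, are not reported here. No 2 libraries were identical. Scripts were tested on simulated data. Alternatives were DESeq2 1.42.0, RLE, upper-quartile, plain-total and pan-neuronal scaling, 2 filters on low counts, the replicate block, 1 fit of all libraries, and leaving out each library of the groups compared.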

Additional observations from a re-analysis of the deposited data

Results flagged for a closer look

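IP enrichment of Mapt differed between AZD and tumor by a test of the difference itself (log2 difference 0.66 ± 0.22, edgeR adjusted p = 0.0302). In the same contrast 12.3% of all tested genes were higher and 20.8% lower. Within numbered pairs, Mapt in IP minus input was 0.70, 0.82 and 0.63 on the log2 scale in AZD and 0.14, 0.015 and 0.061 in tumor. It was thus higher in 3 of 3 AZD pairs than in any tumor pair, and the same held for Nefl, Nefm, Ina, Stmn2 and Gap43. The pairing by number is uncertain for AZD. AZD IP and its input share a library prefix, whereas tumor IP and its input do not. The call was lost under plain library totals (0.48) and on the pan-neuronal scale (-0.0017), and without any of 5 single libraries named with the contrast. The AZD IP libraries also had lower levels of markers of other cells, and the part of this was not tested.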

How the results depend on the processing

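Of the 110 log2 folds of the 10 genes, none changed sign under DESeq2, RLE or upper-quartile scaling, either filter, the replicate block or a single fit of all libraries, apart from folds that passed in neither fit and moved by less than their standard error. The single fit was not an alternative for IP minus input, whose main fit already holds all libraries. Plain library totals turned Nefh (-0.23), Map2 (-0.17) and Map1a (-0.10) in AZD IP against AZD input. Scaling to the pan-neuronal genes assumes that their median is equal in all libraries and turned 42 folds. In control IP against input these were Mapt -0.24 and Gap43 -0.22, in tumor IP against input Ina -0.12 and Mapt -0.36, and in AZD IP against input Nefm -0.39, Nefh -1.18, Ina -0.17, Mapt -0.48, Map2 -1.11, Map1a -1.04, Map1b -0.81 and Gap43 -0.78. In tumor IP against control IP they were Mapt 0.23, Map2 0.42 and Gap43 0.58, in AZD IP against tumor IP Nefh -0.91, Ina -0.34, Mapt -0.27, Map2 -1.10, Map1a -0.62, Map1b -0.53 and Gap43 -0.52, and in AZD IP against control IP Mapt -0.038. In input they were Mapt 0.27, Map2 0.50 and Gap43 0.74 (tumor against control), Nefh -0.23, Ina -0.29, Mapt -0.16, Map1a -0.16, Map1b -0.23 and Gap43 -0.21 (AZD against tumor) and Mapt 0.11 and Stmn2 0.067 (AZD against control). In IP minus input between AZD and tumor they were Nefl -0.21, Nefh -0.57, Mapt -0.0017, Map2 -0.49, Map1a -0.36, Map1b -0.19, Stmn2 -0.012 and Gap43 -0.20. Leaving out 1 library turned Nefm in tumor IP against input (range -0.79 to 0.24, reversed without tumor input replicate 3), Nefh, Map1a and Map1b in AZD input against tumor input (-0.060 to 0.31, -0.090 to 0.47 and -0.063 to 0.27, without tumor input replicate 1) and Nefm in IP minus input between tumor and control (-0.66 to 0.38, without tumor input replicate 3).

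The number of the 10 genes that passed moved from 4 to 1 in control IP against input and from 2 to 1 in AZD IP against control IP with all 18 libraries in a single fit, and from 0 to 1 in tumor IP against input. DESeq2 gave 4 in AZD IP against control IP and 4 for IP minus input between AZD and tumor, where RLE scaling gave 3, plain totals 0, the pan-neuronal scale 0 and the replicate block 7. Plain totals gave 4 in AZD IP against input. The pan-neuronal scale gave 2 in tumor IP against control IP, 4 in AZD IP against control IP, 3 in tumor input and 3 in AZD input against control input. Without 1 library the numbers ranged over 2 to 5 in control IP against input, 1 to 3 in AZD IP against control IP, 0 to 3 in AZD input against tumor input, 3 to 5 in AZD input against control input and 0 to 5 for IP minus input between AZD and tumor. With the replicate number as a block the number in tumor IP against input was 4. Over all genes, calls in tumor IP against input went from 776 to 5433 with the block, 1728 with DESeq2 and 2225 in a single fit. For IP minus input between AZD and tumor the block took them from 5296 to 8025. Between conditions the numbers share only a number, and not every deviation correlation exceeded 0.1; the block there added calls for Gap43 (-0.30) in tumor IP against control IP, Map1a in AZD IP against tumor IP (0.49) and control IP (-0.66) and Map2 (-0.37) in tumor input, and changed no other call. For IP minus input between tumor and control they went from 11 to 40 with DESeq2, 17 with plain totals and 67 with the block, and tumor IP against input went to 460 (pan-neuronal scale) and 451 (at least 5 CPM). The share of called genes that were higher moved on the pan-neuronal scale from 55.5% to 99.7% in tumor IP and from 50.9% to 99.1% in tumor input against control, from 42.8% to 0.346% in AZD IP and from 46.3% to 9.65% in AZD input against tumor, and from 48.0% to 9.86% in AZD IP and 56.4% to 94.4% in AZD input against control. In IP against input it moved from 48.4% to 5.07% in control (31.6% with plain totals), from 41.5% to 29.8% in tumor (30.4%) and from 47.2% to 0.198% in AZD (25.8%), and for IP minus input between AZD and tumor from 37.2% to 0.868% (17.7%). Differences in ratios within libraries kept their sign or changed by less than 1 pooled SD with another pseudocount. With 3 libraries a group, leaving out 1 cannot move such a difference by 1 pooled SD. The outcome of that check was thus fixed in advance, and nothing is drawn from it.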
